A study of Arabidopsis thaliana with 18 samples.

Results

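GRX480 (AT1G28480) and SAG101 (AT5G14930) are 2 genes of the salicylic acid pathway of Arabidopsis thaliana, and their transcript levels were followed in wild type and mutant leaves after a safener spray. The genes were picked with earlier results of these data known, and their probe sets by annotation: 1 probe set is annotated to each gene, so the pair makes up 2 of the 22746 probe sets on the arrays, and each of them had a listed value on all 18 arrays. The arrays were hybridised with RNA from the rosette leaves of plants aged 4 weeks, grown on soil with 16 h of light per day. Safeners are agrochemicals that protect crops from herbicide injury. The spray here combined mefenpyr at 5 mM with isoxadifen at 7.2 mM in a formulation with an emulsifier, and the mock spray held the DMSO solvent.

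Salicylic acid is a defence hormone made mainly through isochorismate synthase when leaves are attacked. It is perceived by NPR proteins, which act on gene promoters through transcription factors of the TGA class. GRX480 encodes a glutaredoxin of the plant-specific CC type, a small redox protein that binds TGA factors, is known to be induced by salicylic acid, and when overproduced lowers the jasmonate marker PDF1.2. SAG101 encodes a lipase-like protein that pairs with EDS1 and relays signals of intracellular immune receptors. It was first described as a senescence-associated gene.

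Each of the 6 groups held 3 arrays, which the labels call biological replicates. Wild type Col0 was sprayed with mock or safener. The mutant tga2tga3tga5tga6 carries mutations in 4 TGA genes and was sprayed in the same ways, as was sid2-2, a mutant in isochorismate synthase. The ecotype of the mutants and the time from spray to harvest were not stated by the labels, nor whether the mock spray held the emulsifier. The genes mutated in these plants were not analysed here, so the genotype labels were not checked against them. Values are intensities on a linear scale with the median of each array at 200, and they are not comparable between probe sets.

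The arrays listed 14627 to 16408 probe sets each and correlated at r = 0.977 to 0.994 with the others of their group, across probe sets. Col0 safener replicate 1, with the fewest listed probe sets, correlated at 0.979 and 0.983 with its group, and sid2-2 mock replicate 3, with the most, at 0.977 and 0.979. Both stand apart, and values without them are given where leaving them out changed a call or moved a value of GRX480 or SAG101 much. Of the leaf mesophyll markers listed, LHCB4.2, a light-harvesting antenna protein gene, was the 1 named in the annotation given, and its group means lay between 2354 and 3990. The root marker PYK10 (group means 275 to 507), the guard cell marker FMA (76.2 to 90.1) and the phloem transporter gene SWEET11 (1370 to 2172) were listed on every array as well.

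**Figure D1:**
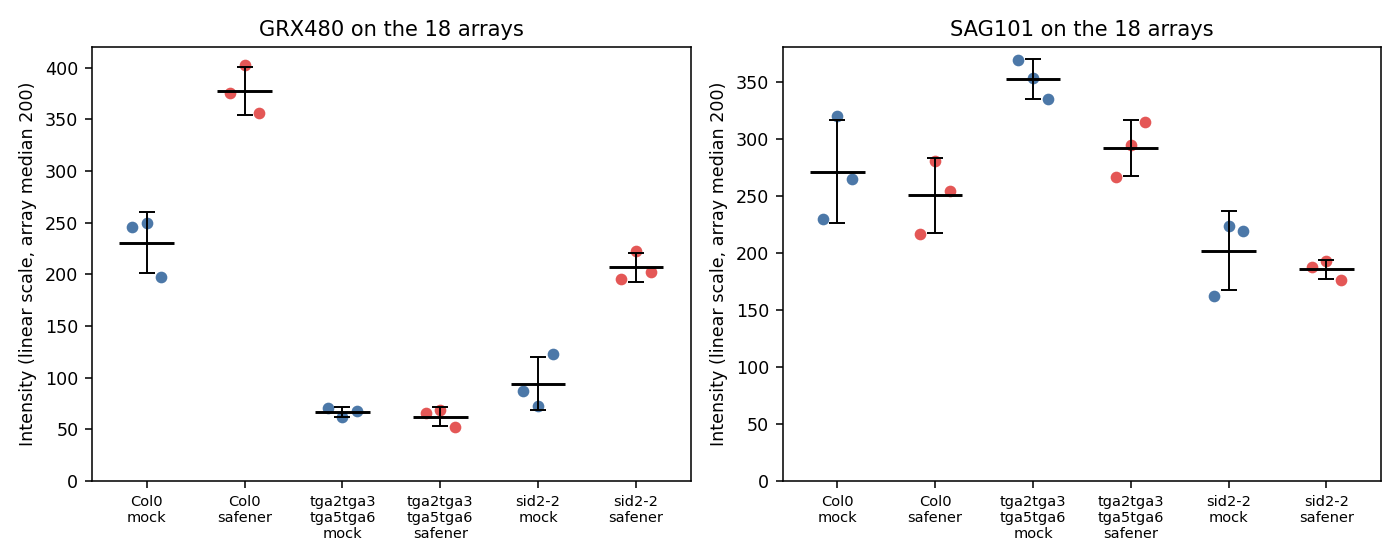
Intensity of GRX480 (left) and SAG101 (right) on each of the 18 arrays, by genotype and spray. Points are arrays (blue, mock; red, safener), the long bar is the mean and the whiskers are the SD of 3 arrays. GRX480 lay between 52.0 and 70.9 on all tga2tga3tga5tga6 arrays, whereas its lowest Col0 value was 197, and SAG101 was highest in mock treated tga2tga3tga5tga6 and lowest in sid2-2.

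The first question was how the safener spray changed the glutaredoxin gene in wild type. GRX480 read 245, 249.8 and 197 on the mock arrays of Col0 and 375, 402 and 356 on the safener arrays. The groups did not overlap, and the lowest safener array lay well above the highest mock array. GRX480 rose 1.64-fold (log2 0.72, SE 0.15, 95% interval 0.40 to 1.04, limma adjusted p = 0.00157, Benjamini-Hochberg over all probe sets tested). In this comparison 32.2% of the 14704 probe sets tested were called at an adjusted p under 0.05, and 14.9% were called higher, so a call as such was common. The rise of GRX480 ranked at 775 from the top of all changes. Without safener replicate 1, the array that stands apart, its log2 change was 0.72. LHCB4.2 (log2 -0.73) and SWEET11 (log2 -0.35) were lower with safener in the same leaves, and their part in the result was not tested.

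In sid2-2, the mutant in isochorismate synthase, GRX480 started from a lower level and rose as well. Its values in sid2-2 were 87.0, 72.8 and 123 with mock and 195, 223 and 203 with safener. The highest mock value came from replicate 3, the array that stands apart, and even that array lay below every safener array. The rise was 2.24-fold (log2 1.17, SE 0.15, 95% interval 0.84 to 1.49, limma adjusted p = 1.82e-05). Without mock replicate 3 the log2 change was 1.37. Of all probe sets tested here 32.6% were called and 13% were called higher, and GRX480 ranked at 305 of 15222. The root marker PYK10 (log2 -0.88) and SWEET11 (log2 -0.66) were lower with safener in the same comparison, and their part in the result was not tested.

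In tga2tga3tga5tga6 GRX480 showed no called change. Mock treated tga2tga3tga5tga6 plants gave 70.9, 62.1 and 67.6, and safener treated ones 66.3, 68.9 and 52.0. These ranges overlapped. The log2 change was -0.11 (SE 0.15, 95% interval -0.43 to 0.21, limma adjusted p = 0.662). The interval's upper end stays below the estimates of 0.72 for Col0 and 1.17 for sid2-2, which is no test of a difference between genotypes. In this mutant 19.1% of the probe sets tested were called, among them SWEET11, which was lower (log2 -0.62).

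Whether the response itself differed between genotypes was tested directly. The response of GRX480 was larger in sid2-2 than in tga2tga3tga5tga6 by a log2 difference of 1.28 (SE 0.22, 95% interval 0.82 to 1.73, limma adjusted p = 0.00772), which ranked at 17 from the top of 14810 probe sets. Of these 0.756% were called, 0.432% as higher and 0.324% as lower. Between tga2tga3tga5tga6 and Col0 the response differed by log2 -0.83 (SE 0.22, 95% interval -1.28 to -0.37), a difference that was not called after adjustment (limma adjusted p = 0.133, unadjusted p = 0.00119). It was the 86th lowest of 14556, and 0.467% of these were called (0.0412% higher, 0.426% lower). Leaving out the pair of arrays that stand apart, chosen after seeing the data, gave -0.83 with a limma adjusted p of 0.0397. In 16 of 17 alternatives this difference was not called. Leaving out each array in turn gave limma adjusted p values of 0.155 to 0.318. The response of sid2-2 exceeded that of Col0 by log2 0.45 (95% interval -0.00 to 0.90, limma adjusted p = 0.53), where 0.103% of probe sets were called (0.0207% higher, 0.0826% lower), so a larger response in sid2-2 than in wild type was not established. Leaving out each array in turn moved this difference between 0.28 and 0.66, the latter without sid2-2 mock replicate 3. All 3 differences share arrays with each other and with the responses above.

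The next question was how the mutations changed GRX480 before any safener was given. In mock treated leaves it was 3.44-fold lower in tga2tga3tga5tga6 than in Col0 (log2 -1.78, SE 0.15, 95% interval -2.10 to -1.46, limma adjusted p = 2.73e-07). The means were 66.8 ± 4.45 and 231 ± 29.1 (SD, n = 3). In sid2-2, at 94.2 ± 25.7, it was 2.50-fold lower than in Col0 (log2 -1.32, SE 0.15, limma adjusted p = 7.39e-06). Every array of either mutant lay below every Col0 array. These falls were the 20th and the 38th lowest changes of all probe sets tested, of which 7.81% were called for tga2tga3tga5tga6 (1.77% as lower) and 22.7% for sid2-2 (5.37% as lower). Without sid2-2 mock replicate 3 the difference of sid2-2 was log2 -1.53. PYK10 was higher in mock treated sid2-2 than in Col0 (log2 0.54), and its part was not tested.

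The mutants were also compared with Col0 after safener. GRX480 was 6.09-fold lower in tga2tga3tga5tga6 than in Col0 (log2 -2.61, SE 0.15, limma adjusted p = 6.52e-10), the 18th lowest of 14859 differences, where 13% were called (8.81% higher, 4.23% lower). In sid2-2 it was 1.83-fold lower (log2 -0.87, SE 0.15, limma adjusted p = 8.65e-04), where 13.1% were called (8.94% higher, 4.17% lower). The group means were 62.4 ± 9.1, 207 ± 14.2 and 378 ± 23.2 for tga2tga3tga5tga6, sid2-2 and Col0. Between the mutants GRX480 was 3.33-fold higher in sid2-2 after safener (log2 1.74, limma adjusted p = 1.65e-07, 15.5% of probe sets called, 7.9% higher and 7.58% lower). With mock the difference between the mutants was log2 0.46 and was not called (limma adjusted p = 0.0606, 11.1% of probe sets called, 5.97% higher and 5.13% lower). The arrays of the mutants did not overlap there, but without sid2-2 mock replicate 3 the difference was 0.25, and without sid2-2 mock replicate 2 it was 0.63 and called (adjusted p = 0.0149). After safener PYK10 was higher in tga2tga3tga5tga6 than in Col0 (log2 0.61) and lower in sid2-2 than in tga2tga3tga5tga6 (log2 -0.66), and its part in these differences, those of SAG101 included, was not tested.

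From the highest to the lowest mean, GRX480 was therefore ordered as Col0 safener, Col0 mock, sid2-2 safener, sid2-2 mock, tga2tga3tga5tga6 mock and tga2tga3tga5tga6 safener, with a ratio of 6.06 between the highest and the lowest group mean. The neighbours Col0 mock (197 to 249.8) and sid2-2 safener (195 to 223) overlapped and were not tested against each other. The lowest neighbours, both groups of tga2tga3tga5tga6, overlapped too. The spread of GRX480 between replicates was largest in mock treated sid2-2, at 27.3% of the mean, and smallest in safener treated Col0, at 6.15%. In whole leaves, fewer cells that express a gene and less of its RNA per cell cannot be told apart, for GRX480 and for the genes that follow.

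**Figure D2:**
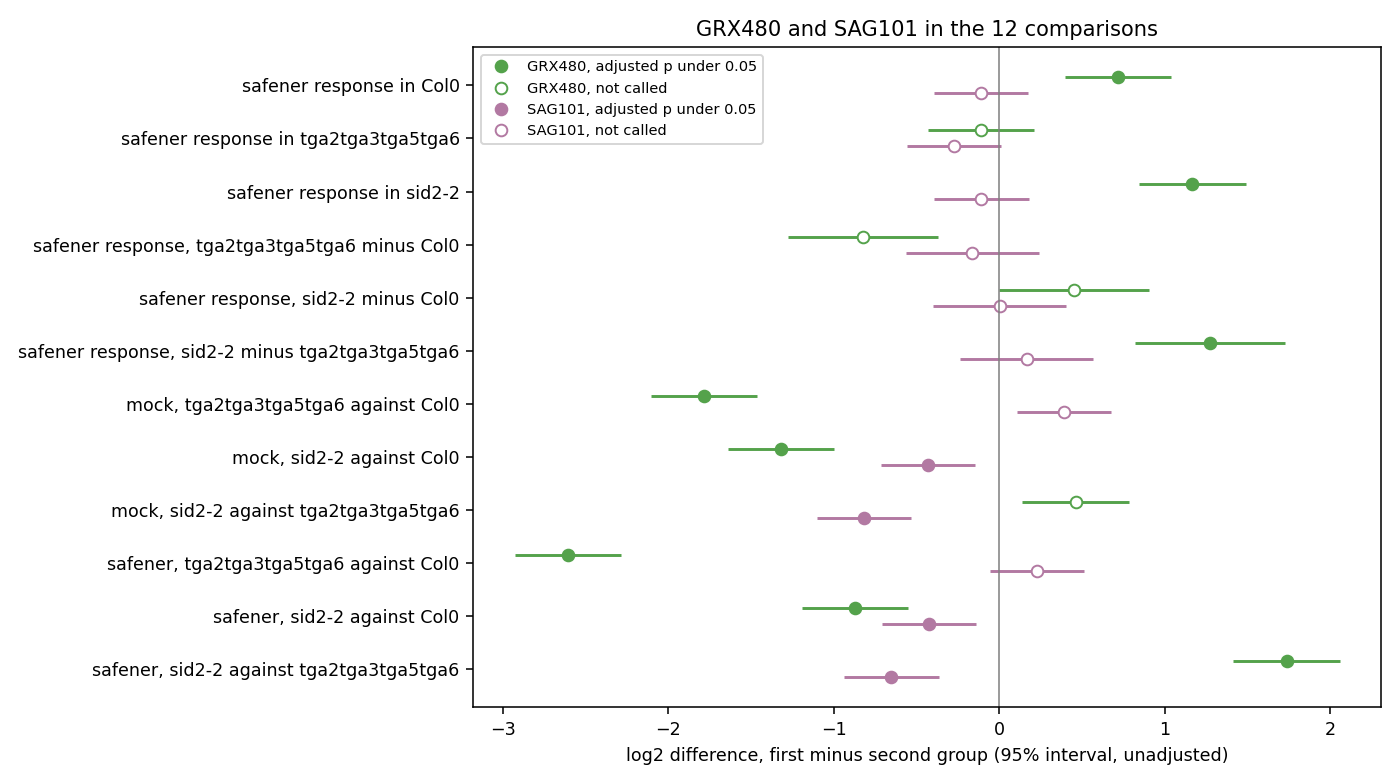
Log2 differences of GRX480 (green) and SAG101 (purple) in the 12 comparisons, with unadjusted 95% intervals from the limma fit. Filled points had an adjusted p under 0.05. GRX480 reached -2.61 between safener treated tga2tga3tga5tga6 and Col0, while the SAG101 values stayed between -0.82 and 0.39.

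For SAG101, the partner of EDS1, no change with safener was called by limma in any of the 3 genotypes. Col0 gave 230.0, 320.3 and 265 with mock and 216, 281 and 254 with safener, which overlapped (log2 -0.11, SE 0.14, 95% interval -0.40 to 0.17, limma adjusted p = 0.56). In sid2-2 the values were 162, 224 and 219.9 with mock and 188, 193 and 177 with safener, overlapping again (log2 -0.11, 95% interval -0.39 to 0.18, limma adjusted p = 0.575). In tga2tga3tga5tga6 the mock arrays, at 369.9, 354 and 335, all lay above the safener arrays, at 267, 295 and 316. That difference was log2 -0.27 (SE 0.14, 95% interval -0.56 to 0.01) and was not called (limma adjusted p = 0.167), although it was with the arrays of this mutant alone in the fit (adjusted p = 0.0473). The intervals leave room for a fall to 0.68-fold in tga2tga3tga5tga6 and to 0.76-fold in Col0 and in sid2-2.

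The response of SAG101 did not differ detectably between genotypes. The difference was log2 -0.16 (95% interval -0.56 to 0.24) between tga2tga3tga5tga6 and Col0 and 0.00 (-0.40 to 0.40) between sid2-2 and Col0. Between sid2-2 and tga2tga3tga5tga6 it was 0.17 (-0.24 to 0.57). The limma adjusted p values were 0.901, 0.996 and 0.959. Without Col0 safener replicate 1 the first and second of these differences were -0.26 and -0.099, and the response in Col0 was -0.0090. Without sid2-2 mock replicate 3 the response of SAG101 in sid2-2 was -0.040, and none of these values was called.

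The genotypes did differ in their level of SAG101, and the clearest difference was between the mutants. With mock it was 1.76-fold lower in sid2-2 than in tga2tga3tga5tga6 (log2 -0.82, SE 0.14, 95% interval -1.10 to -0.53, limma adjusted p = 5.30e-04), with means of 202 ± 34.5 and 353 ± 17.4. With safener it was 1.57-fold lower (log2 -0.65, SE 0.14, limma adjusted p = 0.00248), with means of 186 ± 8.35 and 292 ± 24.5. All sid2-2 arrays lay below all arrays of tga2tga3tga5tga6 at either spray.

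Against wild type the differences of SAG101 were smaller and less firm. In sid2-2 it was lower than in Col0 with mock (log2 -0.43, SE 0.14, 95% interval -0.71 to -0.14, limma adjusted p = 0.0296) and with safener (log2 -0.42, SE 0.14, limma adjusted p = 0.0454), and the arrays did not overlap. The mock call was lost without Col0 mock replicate 2 (log2 -0.30) or replicate 3 (-0.44) and without sid2-2 mock replicate 1 (-0.28), with adjusted p values of up to 0.166. The safener call was lost in 7 of 11 alternatives, with adjusted p values of up to 0.129. Among those were the fits without Col0 safener replicate 2 or 3 and without any 1 of the sid2-2 safener arrays. In tga2tga3tga5tga6 SAG101 was above Col0 with mock on every array, but the difference was not called (log2 0.39, 95% interval 0.10 to 0.67, limma adjusted p = 0.09) unless Col0 mock replicate 2 was left out (log2 0.51, adjusted p = 0.0444). With safener the log2 difference was 0.23 (95% interval -0.06 to 0.51, limma adjusted p = 0.294), and the arrays overlapped. It was 0.12 without Col0 safener replicate 1.

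SAG101 was thus ordered as tga2tga3tga5tga6 mock, tga2tga3tga5tga6 safener, Col0 mock, Col0 safener, sid2-2 mock and sid2-2 safener, with a ratio of 1.90 between the highest and the lowest group mean. The mock and safener groups of Col0, and those of sid2-2, are neighbours whose arrays overlapped. So are tga2tga3tga5tga6 safener (267 to 316) and Col0 mock (230.0 to 320.3), which were not tested against each other. Across the 18 arrays GRX480 and SAG101 correlated at r = -0.37. After each group's mean was subtracted r was 0.06. The points share groups and arrays, so these are descriptions.

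The other genes of the pathway come from lists written from general knowledge, and the annotation given named few of them. Of the lists for synthesis (11 genes), perception with NIMIN (6), TGA factors with SCL14 (9) and thioredoxins h (6), 0 members were named, so these were not analysed here. The senescence list had SAG29 with a value on 1 array, and it was not tested. Of 7 genes of salicylic acid modification UGT76B1, a glucosyltransferase of salicylic acid, could be tested, and BSMT1, a methyltransferase, had too few values. Of the 10 genes of the lipase-like family and its helpers AT3G48080 could be tested beside SAG101, and of 13 responsive genes WRKY53 and AT5G52810 beside GRX480.

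UGT76B1 was called in the same safener responses as GRX480. Its means were 603 ± 34.3 and 1495 ± 34.3 in Col0 with mock and safener, 86.2 ± 20.2 and 102.6 ± 4.86 in tga2tga3tga5tga6, and 88.4 ± 38.8 and 262 ± 8.44 in sid2-2. It rose in Col0 (log2 1.31) and in sid2-2 (log2 1.65), and in tga2tga3tga5tga6 it gave log2 0.28, which was not called. As for GRX480, the difference of the response between sid2-2 and tga2tga3tga5tga6 was called (log2 1.37, limma adjusted p = 0.0192). The differences of its response from that of Col0 were not called (log2 -1.03 for tga2tga3tga5tga6 and 0.34 for sid2-2), again as for GRX480. In mock treated leaves UGT76B1 was lower than in Col0 by log2 -2.83 in tga2tga3tga5tga6 and by -2.85 in sid2-2. Its sid2-2 mock arrays read 66.4, 65.7 and 133, the last on the array that stands apart. Without that array the response in sid2-2 was log2 1.99 and the mock difference -3.19.

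AT3G48080, placed on the list as the second copy of EDS1, was lower in sid2-2. It gave 181, 215 and 208 in mock treated Col0, 168, 150.3 and 181 in tga2tga3tga5tga6, and 46.4, 60.0 and 51.2 in sid2-2. The sid2-2 arrays were far below all others (log2 -1.94 against Col0, SE 0.16, limma adjusted p = 8.61e-08), while tga2tga3tga5tga6 gave log2 -0.28, which was not called. Its response to safener was not called in any genotype (log2 -0.19 in Col0, -0.13 in tga2tga3tga5tga6 and -0.03 in sid2-2). EDS1 and this locus are near-identical copies, and the probe set may bind both transcripts.

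The transcription factor gene WRKY53, a regulator of leaf senescence that responds to salicylic acid, fell in mock treated sid2-2 from the 536 ± 75.1 of Col0 to 285 ± 46.2 (log2 -0.91). It was also lower in tga2tga3tga5tga6 (log2 -0.42), a call that held in 4 of 10 alternatives. Unlike GRX480, WRKY53 had no called response to safener in any genotype. Its mock and safener means were 536 and 551 in Col0 and 285 and 268 in sid2-2. In tga2tga3tga5tga6 they were 398 ± 31.4 and 502 ± 11.4, and every safener array there lay above every mock array. AT5G52810 fell in mock treated sid2-2 (log2 -0.78). It rose with safener in Col0 (log2 0.56, from 691 ± 73.1 to 1017 ± 59.3) and in sid2-2 (log2 0.40), where the call held in 5 of 10 alternatives. In tga2tga3tga5tga6 its log2 change was 0.17 and not called. Over these 2 responsive genes the median log2 difference of mock treated sid2-2 from Col0 was -0.85, against 0.11 for all probe sets tested. The 2 members were few, and the list was chosen with earlier results of these data known.

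**Figure D3:**
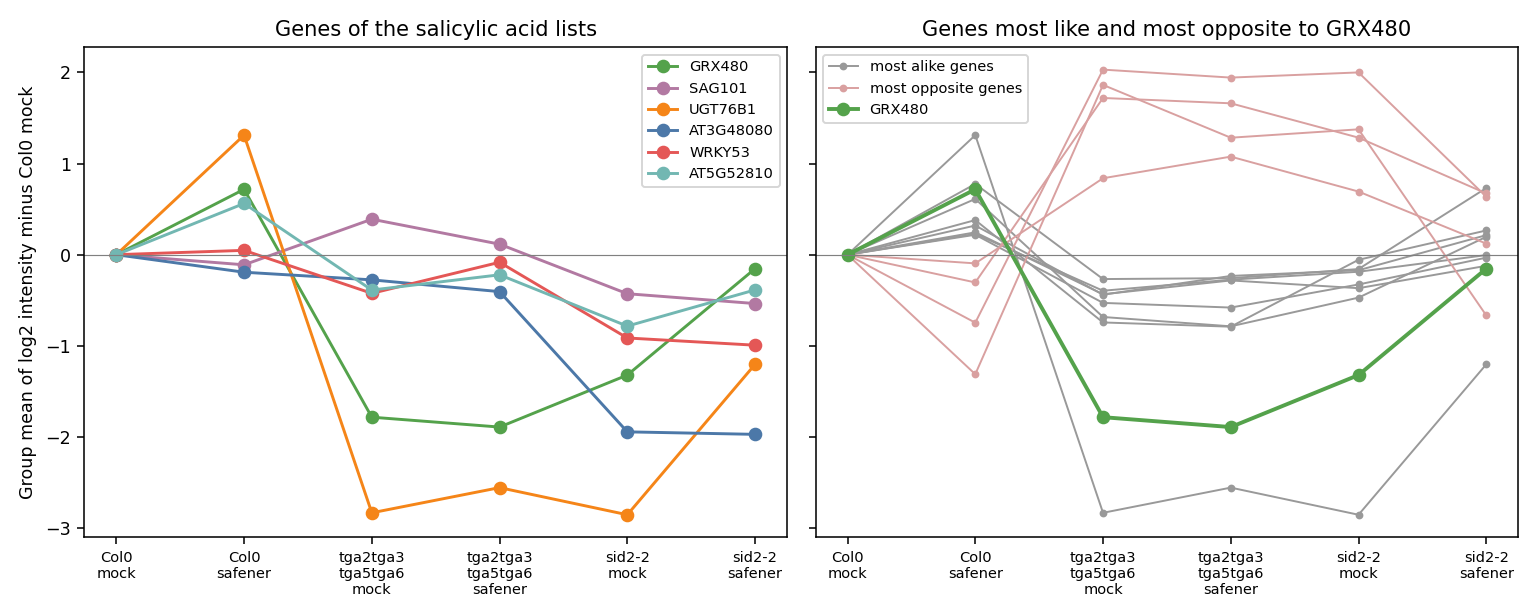
Group means of log2 intensity minus the mean of mock treated Col0, for the measured genes of the salicylic acid lists (left) and for GRX480 with the genes whose values were most like or most opposite to it over the 18 arrays (right). Lines join the 6 groups for reading only. UGT76B1 and GRX480 were low in tga2tga3tga5tga6 with either spray and rose with safener in Col0 and sid2-2, while AT3G48080 was lowest in both groups of sid2-2.

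GRX480 was next set against the other CC-type glutaredoxins, 20 of which were listed beside it. The annotation given named 16 of these and 15 had at least 1 value. In Col0, 3 of 11 tested rose with safener and 2 fell (14.9% and 17.3% of all probe sets), with a median log2 change of 0.19 against -0.06 for all. AT1G06830 rose from 133 ± 22.3 to 396 ± 34.1 (log2 1.58) and AT2G47880 from 224 ± 45.0 to 515 ± 112 (log2 1.19). AT4G15680 rose as well (log2 1.01), while AT5G18600 (log2 -0.45) and AT4G15660 (log2 -0.83) fell. The loci AT4G15660 to AT4G15700 are numbered next to each other and belong to the same family, and their probe sets may bind more than 1 of these transcripts.

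Some of these relatives rose with safener in tga2tga3tga5tga6 as well. In tga2tga3tga5tga6 3 of 13 tested rose and 1 fell (8.81% and 10.3% of all probe sets). AT1G06830 rose from 178 ± 26.1 to 331 ± 67.8 (log2 0.89), AT4G15680 from 82.4 ± 16.4 to 163 ± 63.1 (log2 0.94) and AT3G62960 by log2 0.72. AT5G11930 fell (log2 -0.45), a call that held in 5 of 9 alternatives. For AT3G62960 2 mock arrays of tga2tga3tga5tga6 were listed (43.6 and 46.1), against 72.5 to 74.5 with safener. In Col0 it was blank on every mock array and read 93.4 to 102 with safener. In sid2-2 it had 1 mock value (73.9) and read 89.4 to 133 with safener. Its response was therefore not tested in Col0 or sid2-2, and a rise in tga2tga3tga5tga6 alone is not shown. Between tga2tga3tga5tga6 and Col0 the difference in response was called by limma for 0 of 11 of these relatives (2 at an unadjusted p under 0.05), where 0.467% of all probe sets were called. In sid2-2, 4 of 12 tested rose and 2 fell (13% and 19.6% of all probe sets), with AT4G15680 (log2 1.49) and AT4G15690 (log2 0.90) ahead of AT4G15700 and AT1G06830 (log2 0.50 each). AT5G18600 (log2 -0.49) and AT1G03020 (log2 -0.69) fell.

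In mock treated leaves GRX480 was lower in both mutants. Few relatives were called lower, and few of all probe sets were. Of 13 tested in tga2tga3tga5tga6, 2 were higher than in Col0 and 1 was lower (6.04% and 1.77% of all probe sets). AT5G11930 was higher, at 133 ± 6.84 against 43.4 ± 5.52 (log2 1.62). AT2G47880 was higher (log2 0.67) and AT3G62930 lower (log2 -0.51), and these calls held in 5 of 10 and in 2 of 9 alternatives. In sid2-2, 4 of 13 were higher and 0 lower by limma (17.3% and 5.37% of all probe sets), and 6 passed an unadjusted p of 0.05 in either direction. AT1G06830 stood at 354 ± 46.4 there (log2 1.42 above Col0) and AT2G47880 at 519 ± 187 (log2 1.17), with AT1G03020 (log2 0.50) and AT3G62950 (log2 0.45) higher too. The value of 735 for AT2G47880 came from sid2-2 mock replicate 3, the array that stands apart, and without it the log2 difference was 0.89. Of the 5 measured glutaredoxins of other types, limma called 0 in each safener response, where 32.2%, 19.1% and 32.6% of all probe sets were called in Col0, tga2tga3tga5tga6 and sid2-2. At an unadjusted p under 0.05 there were 2 in Col0 and 0 in each mutant. AT2G20270 was higher in mock treated sid2-2 (log2 0.50).

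**Figure D4:**
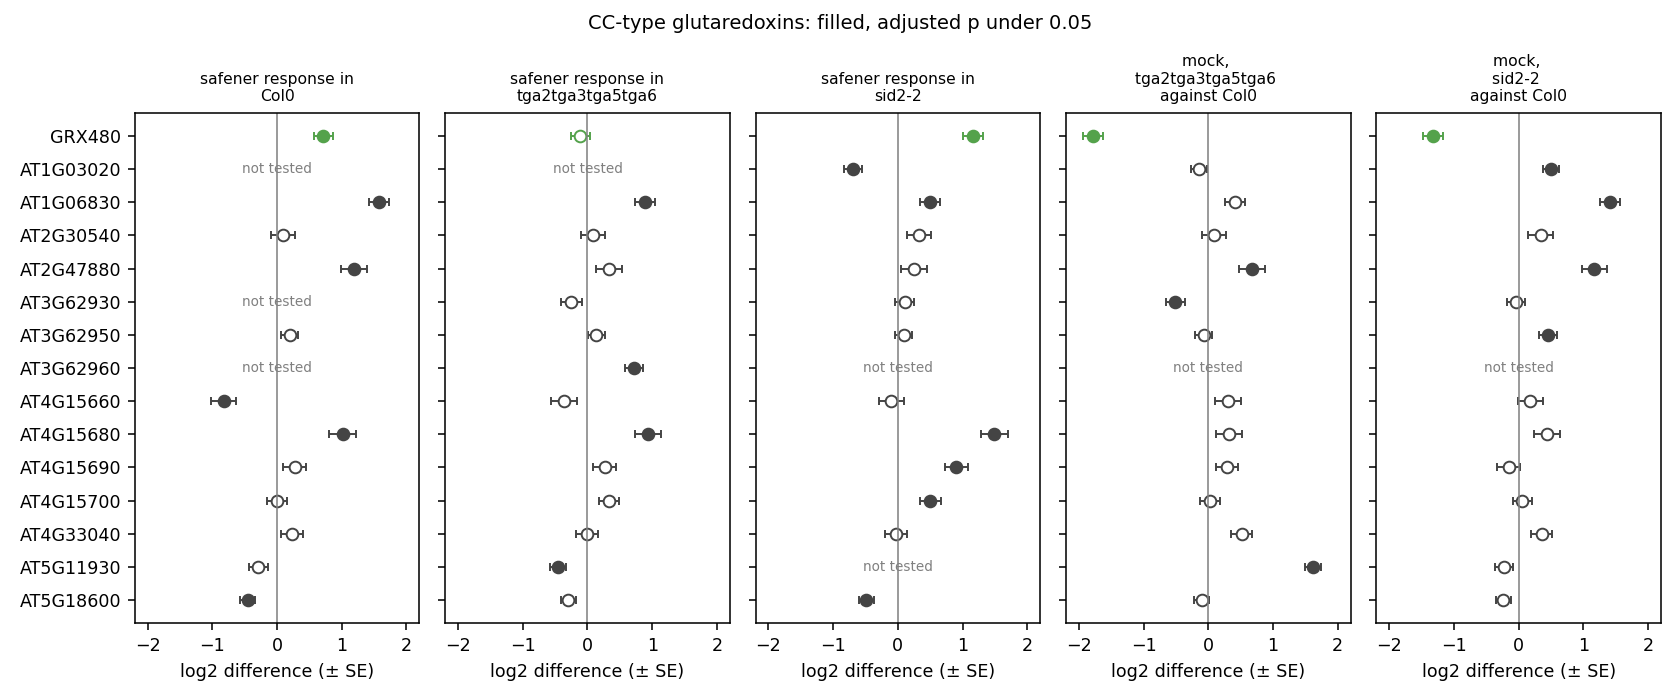
Log2 differences (± SE) of GRX480 (green) and the other CC-type glutaredoxins tested in at least 1 of 5 comparisons. Filled points had a limma adjusted p under 0.05, and "not tested" marks loci with too few listed values. GRX480 was the lowest of them in both mock treated mutants, at -1.78 and -1.32, where AT5G11930 and AT1G06830 were the highest.

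PDF1.2 and PDF1.2b are defensin genes of the jasmonate response, and GRX480 overproduction is known to lower PDF1.2. Of 8 listed defence genes of the jasmonate and ethylene responses, the annotation given named these 2, and both were tested. In mock treated leaves PDF1.2 had means of 254 ± 25.6 in Col0, 2674 ± 462 in tga2tga3tga5tga6 (log2 3.39) and 5260.1 ± 606 in sid2-2 (log2 4.37), and PDF1.2b was higher in the same mutants (log2 2.13 and 3.06). Of all probe sets tested, 6.04% were called higher in mock treated tga2tga3tga5tga6 and 17.3% in mock treated sid2-2. With safener both genes rose in Col0 (log2 1.01 and 0.70), where 14.9% of all probe sets were called higher. Both calls were lost without safener replicate 1 (log2 0.65 and 0.54, adjusted p = 0.0742 and 0.0883 by limma). In sid2-2 both were lower with safener (log2 -0.76 and -0.69, adjusted p = 0.049 and 0.0199 by limma), where 19.6% of all probe sets were called lower. Those calls held in 4 and in 6 of 10 alternatives, and without mock replicate 3 the values were -0.66 and -0.40 and not called. In tga2tga3tga5tga6 the log2 changes were 0.018 and 0.11, neither called. Any part of GRX480 in the levels of these genes was not tested. The probe set of PDF1.2b may bind transcripts of related genes.

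Genes with values most like those of GRX480 were found by Pearson correlation of log2 intensity over the 18 arrays, among 13433 probe sets listed on all of them. UGT76B1 came first among probe sets of a single gene (r = 0.94, and 0.73 after group means were subtracted). In mock treated sid2-2 both genes were highest on replicate 3, the array that stands apart (GRX480 123, UGT76B1 133). The r within groups was not computed without that array. AT5G07870 followed (r = 0.94, and -0.41 within groups), then AT4G21580 (0.89), AT1G26270 (0.89), AT5G07860 (0.88), AT3G27870 (0.86), AT3G47380 (0.82) and AT5G37740 (0.82). AT5G07870 had means of 83.4 and 128 in Col0 with mock and safener, 52.0 and 48.4 in tga2tga3tga5tga6, and 60.7 and 95.6 in sid2-2. The most opposite were AT3G28220 (r = -0.95), AT1G64710 (-0.94), AT4G29700 (-0.92) and the jacalin-related lectin gene JAL23 (-0.90). AT3G28220 stood at 127 in mock treated Col0 and at 506 and 497 in the mock treated mutants. In all 4 probe sets reached an r of at least 0.9 with GRX480 and 16 an r of at most -0.9, unnamed ones included.

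For SAG101 the closest was EPC1, a glycosyltransferase gene needed for cell adhesion (r = 0.91, and 0.70 within groups), followed by AT1G35710 (0.88), AT2G34585 (0.86), AT5G49760 (0.86), the invertase family gene cwINV6 (0.86), AT3G15940 (0.85), AT1G16560 (0.85) and AT1G16500 (0.84). The cwINV6 means were 234 in Col0, 281 in tga2tga3tga5tga6 and 61.9 in sid2-2 with mock. The most opposite were Z-ISO, an isomerase gene of carotenoid synthesis (r = -0.87), AT1G09500 (-0.86), AT2G04795 (-0.85) and AT3G20430 (-0.85). AT1G09500 stood at 371 in mock treated sid2-2, at 67.8 in Col0 and at 53.2 in tga2tga3tga5tga6. These likenesses come from 6 groups of 3 arrays, so genes that differ between genotypes for any reason can rank high.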

How the data were processed

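The authors deposited linear intensities, 1 for each probe set of 18 ATH1 arrays (Affymetrix). The submitters' processing notes name RMA, with no version. Each array's listed values, controls included, have a median of 200, and part of the table is blank. All columns were used (0 left out). Of 22810 probe sets 64 controls were removed. The annotation gave a single gene to 13513 probe sets and more than 1 to 503; gene IDs were matched to the RefSeq gene table (TAIR10.1) for loci. Log2 intensities were fitted in limma 3.58.1 (R 4.3.3; lmFit and eBayes) with the means of the 6 groups, and 12 contrasts were read from it. A probe set was tested where each group had at least 2 listed values. Calls needed a Benjamini-Hochberg adjusted p under 0.05, all tested probe sets being adjusted together. The fit was tested on simulated data. With 3 arrays a group, their number limits the precision.

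Named are the members, up to 4 genes per list and comparison (all in lists with 4 or fewer measured), and the 8 most alike and 4 most opposite genes. The members and lists were chosen with earlier results of these data known. A list gene with several probe sets was read from the brightest. Alternatives were quantile normalization, a mean log2 of at least 6, the arrays of the comparison alone, a replicate block and leaving out each array. The planned description of promoter and protein sequences was not made.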

Additional observations from a re-analysis of the deposited data

Results flagged for a closer look

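The safener response of GRX480 differed between the mutants by a test of the difference itself: it was larger in sid2-2 than in tga2tga3tga5tga6 by a log2 value of 1.28 (95% interval 0.82 to 1.73, limma adjusted p = 0.00772). All 3 sid2-2 safener arrays lay above the sid2-2 mock arrays, while the arrays of tga2tga3tga5tga6 overlapped. Over the 17 alternatives the adjusted p was between 3.28e-04 and 0.0242, and the value between 1.11 and 1.48.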

How the results depend on the processing

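Of 147 alternative values of GRX480, 144 kept direction and call, 2 gained a call and 1 turned sign. For SAG101, of 147 values 127 did so, 11 lost a call, 2 gained it and 7 turned sign. The causes were not tested.

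With each array left out in turn, GRX480 ranged from log2 -0.19 to 0.018 for the response in tga2tga3tga5tga6, from 0.28 to 0.66 for sid2-2 minus Col0, and from 0.25 to 0.63 between the mock treated mutants. SAG101 ranged from -0.22 to 0.014 for the response in Col0, from -0.15 to 0.12 for sid2-2 minus Col0, from 0.28 to 0.51 for mock treated tga2tga3tga5tga6 against Col0, and for sid2-2 against Col0 from -0.54 to -0.28 with mock and from -0.53 to -0.34 with safener. Counts of called probe sets ranged from 1568 to 2600 for the response in tga2tga3tga5tga6. For differences of response they ranged from 28 to 70 (tga2tga3tga5tga6 minus Col0), from 5 to 20 (sid2-2 minus Col0) and from 62 to 159 (sid2-2 minus tga2tga3tga5tga6). With mock they ranged from 662 to 1128 (tga2tga3tga5tga6 against Col0), from 1959 to 3653 (sid2-2 against Col0) and from 964 to 1606 (between mutants), and with safener from 1181 to 2137 (tga2tga3tga5tga6 against Col0) and from 1250 to 2199 (sid2-2 against Col0).

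Quantile normalization gave SAG101 -0.42 for safener treated sid2-2 against Col0 (adjusted p = 0.0512 by limma). With the arrays of the comparison alone, SAG101 gave -0.27 for the response in tga2tga3tga5tga6 (0.0473), -0.43 for mock treated sid2-2 against Col0 (0.106) and -0.42 with safener (0.0624). Of called probe sets, 15 for sid2-2 minus Col0 became 9 with quantile normalization and 5 with the arrays of the comparison alone, which also gave 1978 for mock treated sid2-2 against Col0 (3401 before), 1123 between the mock treated mutants (1703 before) and 1221 for safener treated sid2-2 against Col0 (1954 before). Leaving out both arrays that stand apart, chosen after seeing the data, gave GRX480 -0.83 for tga2tga3tga5tga6 minus Col0 (adjusted p = 0.0397), SAG101 -0.031 for sid2-2 minus Col0, and counts of 117 (68 before), 5 (15 before) and 201 (112 before) for the 3 differences of response.

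Whether replicate numbers pair the arrays was not settled. After group means were subtracted, in 0 of 15 pairs of groups did all same-numbered arrays correlate above 0.1 (-0.406 to 0.463). Yet each safener array of tga2tga3tga5tga6 correlated best with its own number in sid2-2, with mock (0.02, 0.33 and 0.13) and with safener (0.06, 0.28 and 0.23). With the replicate block no call of GRX480 or SAG101 changed, GRX480 gave 0.72 in Col0 (adjusted p = 0.00296 by limma), and the count for sid2-2 minus Col0 became 6.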
